A study of Mus musculus with 8 samples.

Results

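In single mouse embryonic stem (mES) cells, 10 genes that p53 is known to activate on the way to cell death were followed: Bax, Bbc3, Pmaip1, Fas, Tnfrsf10b, Aen, Perp, Apaf1, Ei24 and Eda2r. They were taken by symbol from both count tables, and all 10 of them were found among 54146 genes. The study compared untreated mES cells with mES cells given CX-5461, an inhibitor of RNA polymerase I that blocks the synthesis of ribosomal RNA. Both cultures held ES cells derived from the inner cell mass, grown on gelatin with mouse embryonic fibroblast (MEF) feeders in LIF/2i medium, and the dose and time of CX-5461 for these libraries are not given in the sources used here. Cells were captured with 10x Genomics 3′ chemistry, which counts unique molecular identifiers (UMIs), each marking 1 captured RNA molecule. The labels list 4 samples per condition, but the cells of a condition stand in 1 table that does not name the sample of a cell. Each condition was therefore 1 library, the treatment and the library cannot be told apart, and no p-value is given.

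p53 is a transcription factor that is kept low by Mdm2 and accumulates under stress, including failure of ribosome production. Its targets include genes of cell cycle arrest and genes of 2 routes to apoptosis. On the mitochondrial route, BH3-only proteins such as Bbc3 (Puma) and Pmaip1 (Noxa) free Bax to open the outer mitochondrial membrane, and the cytochrome c that escapes binds Apaf1 to build the apoptosome that activates caspase 9. On the other route, receptors of the tumour necrosis factor family at the cell surface, such as Fas and Tnfrsf10b, recruit caspase 8.

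To show what these loci carry upstream, RefSeq promoter windows (GRCm38.p6, 250 bases before to 50 after a transcription start) were searched for the p53 half-site, a palindromic motif of 10 bases that reads the same on both strands. Windows were found for 7 of the 10 genes, and 3 of these 7 held a half-site, against 9.55% of all 27025 genes with a window. Counted from the start, Bax held it at positions -201 to -192 and Ei24 at -10 to -1. Aen held it at 11 to 20 from its first start, which is -121 to -112 from its second. The windows of Bbc3, Apaf1, Fas and Eda2r held none, which says only that these letters are not in these windows. The upstream sequences of Bax, the member with the most UMIs, and of Fas, the member with the highest ratio in ES-like cells, are given with the 30 bases around the sites of Aen and Ei24, all read 5′ to 3′ on the strand of the gene with the half-site in capitals.
Bax, chr7:45466899-45467148, minus strand: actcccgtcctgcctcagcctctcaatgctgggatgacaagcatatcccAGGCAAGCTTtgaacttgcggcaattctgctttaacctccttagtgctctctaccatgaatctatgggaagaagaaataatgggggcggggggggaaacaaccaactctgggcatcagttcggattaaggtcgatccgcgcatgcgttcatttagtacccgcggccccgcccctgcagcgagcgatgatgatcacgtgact
Fas, chr19:34290409-34290658, plus strand: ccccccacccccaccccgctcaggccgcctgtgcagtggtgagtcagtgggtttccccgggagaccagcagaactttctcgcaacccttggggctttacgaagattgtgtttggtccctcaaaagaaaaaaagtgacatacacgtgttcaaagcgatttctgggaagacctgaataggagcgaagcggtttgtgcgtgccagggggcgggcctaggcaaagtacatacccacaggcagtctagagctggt
Aen, chr7:78895927-78895956, plus strand: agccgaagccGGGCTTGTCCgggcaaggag
Ei24, chr9:36797325-36797354, minus strand: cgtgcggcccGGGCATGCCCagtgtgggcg

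The control table held 3838 barcodes and 49610287 UMIs, and that of CX-5461 held 4922 barcodes and 69841836 UMIs. Comparisons were made in 3 populations that share no cell: ES-like cells and fibroblast-like cells with at most 0.1 of their UMIs on mitochondrial (mt-) genes, and all cells above 0.1. Cells at or below 0.1 in unnamed or 2C-like clusters were in none of these 3 populations. The largest such cluster, with 1177 control and 2 CX-5461 cells at a median of 2371 UMIs, was too shallow to be named ES-like. ES-like cells numbered 2352 in the control and 3974 under CX-5461, at a median of 15891 and 14672 UMIs. Fibroblast-like cells, the feeders, numbered 198 and 159, at 21540 and 23755 UMIs, and cells above 0.1 numbered 834 and 710, at 2018 and 5379 UMIs. The ES-like cells had a UMI of the ES marker Dppa5a in 99.96% and 100% of cells. All 12 listed ES markers were found in both ES-like and fibroblast-like cells. They summed to 7708 and 8217 CPM in ES-like cells, and to 523 and 417 CPM in fibroblast-like cells. The ES marker Klf4 went the other way, with 93.1 and 136 CPM in ES-like and 140 and 183 CPM in fibroblast-like cells. The fibroblast-like cells had a UMI of the collagen gene Col1a1 in 96% and 97.5% of cells, but of Pdgfrb in 27.3% and 29.6% and of Lum in 11.6% and 27%. The 12 fibroblast markers summed to 4854 and 10396 CPM in fibroblast-like cells, and to 143 and 182 CPM in ES-like cells. Dppa5a was also found in 92.4% and 83% of fibroblast-like cells, but at 242 and 176 CPM, against 4941 and 5894 CPM in ES-like cells. In ES-like cells the median mitochondrial share was 1.88% in the control and 4% under CX-5461. Values per non-mitochondrial UMI and in bands of this share are given below, and any other part of it in the results was not tested. Levels are UMIs per 1000000 UMIs of the population (CPM), and the intervals of levels, ratios and shares are exact at 95% and cover counting error only.

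In ES-like cells all 10 genes had a higher level under CX-5461, and Fas, Pmaip1 and Perp had the highest ratios. The 10 genes together made up 745.8 CPM (interval 737 to 754, 30816 UMIs) in the control and 1371 CPM (1362 to 1380, 83300 UMIs) under CX-5461, a ratio of 1.84 (1.81 to 1.86). Of the 10 genes, 9 were at least 1.5-fold higher and none was 1.5-fold lower. Among all 15198 genes with at least 50 UMIs, 41.1% were at least 1.5-fold higher and 8.47% lower, so that a gene past this fold was common in this comparison. The median log2 ratio of all these genes was 0.42, and that of the 10 members was 1.67. Relative to the median of all genes, 7 of the 10 members were at least 1.5-fold higher, beside 24.7% of all genes, and Bax, Aen and Ei24 were not. Bax alone held 80.1% of the members' UMIs in the control and 72.3% under CX-5461. The other 9 together had a ratio of 2.55 (2.48 to 2.63).

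The genes of the mitochondrial route were higher by different factors. Bax (chr7:45461697-45466898, GRCm38), the protein that opens the outer mitochondrial membrane, had 597 CPM in the control and 991.5 under CX-5461, a ratio of 1.66 (1.64 to 1.68). Relative to all genes this was a log2 ratio of 0.31, and 34.4% of all genes tested had a higher ratio than Bax. Bbc3 (chr7:16308393-16318205), a BH3-only activator of Bax, had 258 UMIs or 6.24 CPM in the control and 1601 UMIs or 26.3 CPM under CX-5461, a ratio of 4.22 (3.7 to 4.83). Pmaip1, the other BH3-only gene of the list, had 28 UMIs or 0.678 CPM in the control and 923 UMIs or 15.2 CPM under CX-5461. Its ratio was 22.4 (15.4 to 33.9), and 2.16% of all genes tested had a higher one. Apaf1 (chr10:90989311-91082770), the scaffold of the apoptosome, had 3.8 CPM in the control and 14.4 under CX-5461, a ratio of 3.79 (3.19 to 4.52).

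Of the 3 receptors, Fas stood apart. Fas (chr19:34290666-34327772), the receptor of Fas ligand, had 2 UMIs among all 2352 control ES-like cells and 754 UMIs among 3974 cells under CX-5461. These are 0.0484 CPM (0.00586 to 0.175) and 12.4 CPM (11.5 to 13.3), a ratio of 256 (70.7 to 2121), and 0.546% of all genes tested had a higher ratio. Tnfrsf10b (chr14:69767472-69784411), the mouse receptor of the TRAIL ligand, had 5.95 CPM in the control and 12.9 under CX-5461, a ratio of 2.17 (1.88 to 2.51). Eda2r (chrX:97333840-97377216), a receptor of ectodysplasin A2, had 5.86 and 15.6 CPM, a ratio of 2.67 (2.32 to 3.09). Transcripts of the ligands were near the limit of these libraries: Fasl had no UMI in any of the 3 populations, and Tnfsf10, which encodes TRAIL, was found at 0.0242 and 0.0165 CPM in ES-like cells.

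The other effectors had ratios between 1.37 and 20.8. Perp (chr10:18845020-18857073), a membrane protein that is also part of desmosomes, had 211 UMIs or 5.11 CPM in the control and 6451 UMIs or 106 CPM under CX-5461, a ratio of 20.8 (18.1 to 24). Ei24 (chr9:36779159-36797393), a protein of the endoplasmic reticulum membrane, had 24.5 and 44.5 CPM, a ratio of 1.82 (1.69 to 1.96). Aen (chr7:78895854-78911209), a nuclease, had 96.3 and 132 CPM, and its ratio of 1.37 (1.32 to 1.42) was below 1.5-fold. Its log2 ratio relative to all genes was 0.027, so Aen lay at the centre of all genes tested, of which 48.4% had a higher ratio. No count of any member was marked in the deposited tables as shared with other genes, and the genes that overlap Bax, Fas, Apaf1 or Ei24 had at most 2 UMIs in either table.

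**Figure D1:**
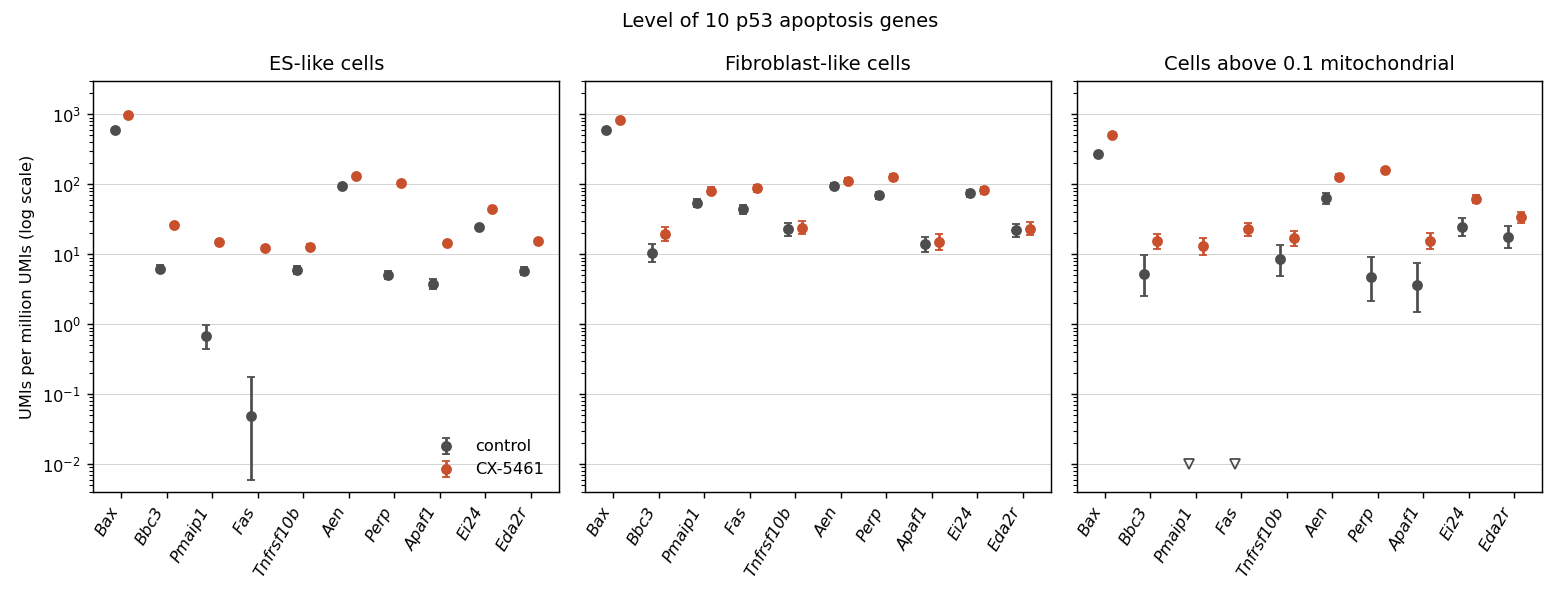
Level of each of the 10 genes in CPM (log axis) in 3 populations, control in grey and CX-5461 in orange; points are the value of 1 library, bars are exact 95% Poisson intervals, and open triangles mark 0 UMIs. In ES-like cells Fas lies at 0.0484 in the control and 12.4 under CX-5461, while in fibroblast-like cells it lies at 43.8 and 87.9.

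The share of cells with a UMI depends on depth, so every cell was also thinned at random to 3000 UMIs, and 7 ES-like cells of the control and 10 of CX-5461 were too shallow for this. As deposited, Perp was found in 7.87% of control and 70.2% of CX-5461 ES-like cells, and at equal depth in 1.83% (1.33 to 2.46) and 26.2% (24.8 to 27.6). Fas was found in 2 control cells and 613 CX-5461 cells as deposited, 0.085% and 15.4%. At equal depth this was 0.0426% (0.00108 to 0.237) and 3.46% (2.91 to 4.07). Pmaip1 went from 1.11% to 19.6% as deposited and from 0.171% to 5.02% at equal depth, and Bbc3 from 10.2% to 31% and from 2% to 8.5%. Bax was already found in 99.8% of control cells as deposited, and at equal depth in 82.3% (80.7 to 83.8) and 94.2% (93.4 to 94.9). The other 5 genes also had higher shares at equal depth under CX-5461, from 1.36% and 3.88% for Apaf1 to 24.1% and 32.7% for Aen.

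Transcripts of one cell can reach the droplets of others as free RNA. No cell type of these cultures is known to lack the 10 genes, so the feeder collagen genes were used as a measure of it. Col1a2 was found in 1.66% of control and 1.13% of CX-5461 ES-like cells, where its level was 0.126% and 0.0604% of that in the fibroblast-like cells of the same library. Col3a1 stood at 0.132% and 0.0605%. Fas in control ES-like cells stood at 0.11% of its feeder level, about that of these collagen genes, and under CX-5461 at 14.1%. The control value rests on 2 UMIs, at 0.0011 times the feeder level (0.00013 to 0.004). Whether these UMIs are free RNA was not tested. Pmaip1 stood at 1.24% in the control and 18.6% under CX-5461. Col1a1 went the other way from Col1a2, from 0.254% to 0.715% of its feeder level. It was found in 3.57% of control and 13.3% of CX-5461 ES-like cells.

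**Figure D2:**
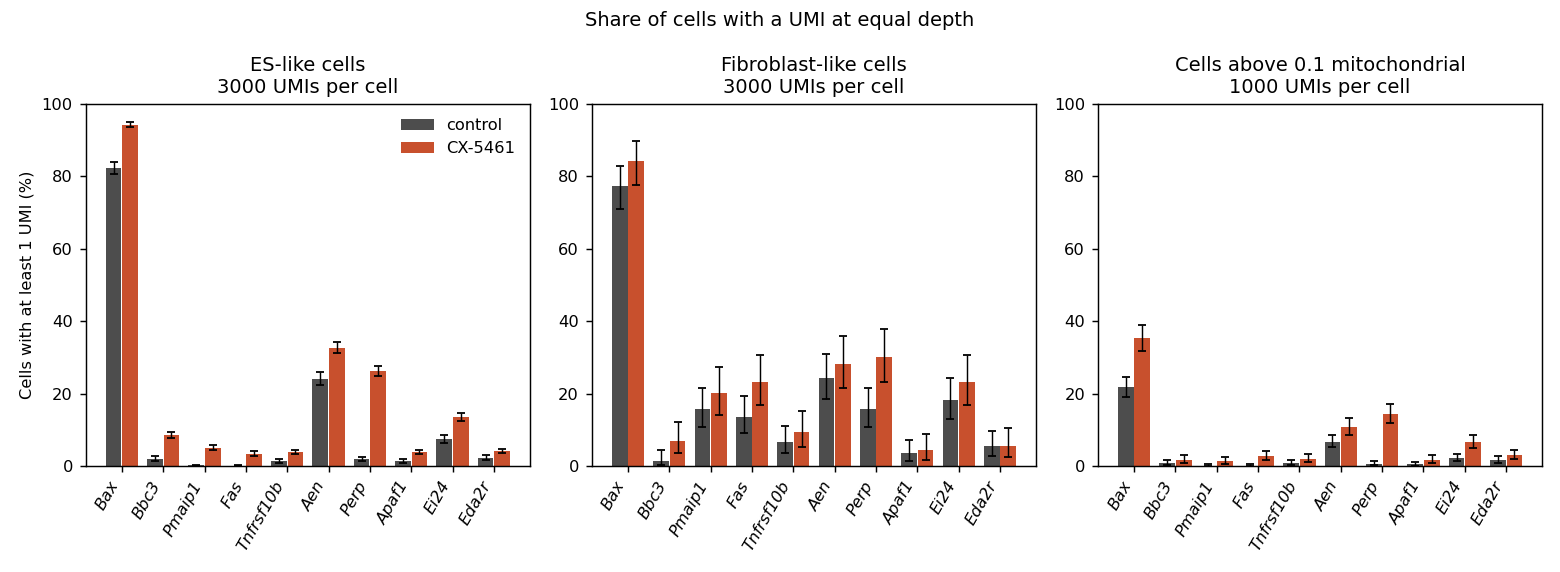
Percentage of cells with at least 1 UMI of each gene after every cell was thinned to 3000 UMIs (1000 for cells above 0.1 mitochondrial), control in grey and CX-5461 in orange; bars start at 0 and error bars are exact 95% Clopper-Pearson intervals. In ES-like cells Perp went from 1.83% to 26.2%, while in fibroblast-like cells it went from 15.7% to 30.2%.

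The sum was higher over the whole range of ES-like cells, not only in the highest of them. Per cell and as deposited, the 10 genes together had a median of 12 UMIs (quartiles 8 and 16) in the control and 21 (16 and 26) under CX-5461, with a highest cell of 55 and 71 UMIs. Without the highest cell of each library the log2 ratio of the sum was 0.88, as with it. The variance of the thinned sum over its mean, which is 1 where cells differ by random capture alone, was 1.05 in the control and 1.17 under CX-5461. Perp had the widest spread of the 10 genes under CX-5461, 1.14 thinned and 1.73 as deposited with the total of each cell taken into account. The median of the 100 genes nearest to Perp in mean was 1.03 when thinned. Bbc3, Pmaip1, Tnfrsf10b and Eda2r stayed between 0.979 and 1.01 when thinned. At 3000 UMIs per cell, 4 or more of the 10 genes were found together in 0.213% (0.0693 to 0.497) of control and 6.53% (5.78 to 7.35) of CX-5461 ES-like cells. Genes found independently of each other at their single shares would give 0.21% and 5.54%. None of the 10 was found in 11.8% and 2.17% of cells.

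Within the CX-5461 library the ES-like clusters differed in these genes, although the 10 genes and the other p53 and apoptosis lists were kept out of the genes used to cluster. Clusters came from the same cells, so these values are a description. The sum ran from 998 CPM in a cluster of 487 cells with a median mitochondrial share of 15.6%, most of them above the limit of 0.1, to 1779 CPM in a cluster of 604 cells led by Krt15, Dpep3 and Robo3. Fas ranged from 7.25 to 37 CPM over the 6 CX-5461 clusters and was highest in the Krt15-led cluster, as was Perp, which ranged from 75.6 to 206 CPM. Bbc3, which ranged from 16.5 to 49 CPM, and Apaf1, from 7.29 to 24.4 CPM, were highest in another cluster of 440 cells, led by Parn and Nectin4. The 2 control clusters were closer to each other, with sums of 737 and 758 CPM. A cluster of 78 CX-5461 cells named 2C-like for its Zscan4-linked genes had a sum of 1244 CPM with Fas at 12.9 and Pmaip1 at 33.7 CPM, and its control part of 14 cells was too small for values.

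The sum also varied with the depth of a cell in the CX-5461 library. ES-like cells with 5000 to 10000 UMIs had 1519 CPM (1475 to 1564) under CX-5461, and those with 20000 or more had 1235 (1216 to 1254). Cells below 5000 UMIs, 35 under CX-5461 and 17 in the control, had lower sums, 1042 CPM (869 to 1238) and 549 CPM (370 to 784). In the control the classes of 5000 to 10000 and of 20000 or more had 768 (721 to 816) and 752 CPM (739 to 765), and the sum was higher under CX-5461 in every class of depth. Cells with and without a UMI of the arrest gene Cdkn1a, at 3000 UMIs per cell, differed little beside the difference between the libraries. The sum was 1401 CPM with and 1354 CPM without Cdkn1a under CX-5461, and 752 and 733 CPM in the control. Fas under CX-5461 stood at 12.6 CPM with and 10.5 CPM without Cdkn1a.

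In fibroblast-like cells the ratios were smaller, and in the control 8 of the 10 genes had a higher level than in ES-like cells, while Bax and Aen had about the same. The share of all genes with a higher level in control fibroblast-like cells was not counted. The sum was 1011 CPM (981 to 1041) in the control and 1398 CPM (1361 to 1436) under CX-5461, a ratio of 1.38 (1.33 to 1.44). Of the 10 genes, Bbc3, Fas and Perp were at least 1.5-fold higher, 3 in all, and none was lower, while 22.4% of 8440 genes were higher and 11.3% lower. The median log2 ratio of all these genes was 0.16, and relative to it the same 3 genes were at least 1.5-fold higher, beside 15.1% of all genes. Fas had 43.8 and 87.9 CPM, a ratio of 2.01 (1.68 to 2.4). Perp had 70.2 and 127 CPM, a ratio of 1.81 (1.57 to 2.09), and Bbc3 had 10.5 and 19.7 CPM, a ratio of 1.88 (1.29 to 2.76). Pmaip1 lay just below the fold, with 54.8 and 81.8 CPM and a ratio of 1.49 (1.26 to 1.77). The ratios of Tnfrsf10b, Apaf1, Ei24 and Eda2r were between 1.05 and 1.1, and each of their intervals included 1. As deposited, Perp had the highest variance over mean of the 10 genes over feeder cells, 4.29 in the control and 4.04 under CX-5461. Thinned, it had 1.34 and 1.23, and under CX-5461 Pmaip1 with 1.36 and Bax with 1.33 were higher. Thinned genes of like mean had medians of 1.03 and 1.07 beside Perp. Under CX-5461 these medians were 1.02 beside Pmaip1 and 1.27 beside Bax.

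The fibroblast-like cells of the libraries were not of one kind. Those of the control came almost all from a cluster led by Acta2 and Tagln, and those of CX-5461 from a cluster led by H19, Ccl2 and Col3a1. The 12 fibroblast markers summed to 4854 CPM in the control and 10396 CPM under CX-5461, and the 5 macrophage markers to 177 and 17.2 CPM. The part of these differences in the feeder values was not tested.

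The ratio in ES-like cells exceeded that in fibroblast-like cells for each of the 10 genes, but not relative to all genes. On that scale the log2 ratio was 0.03 in ES-like and 0.08 in fibroblast-like cells for Aen and 0.31 and 0.29 for Bax, and it was higher in ES-like cells for the other 8. For the sum it was 0.45 in ES-like and 0.31 in fibroblast-like cells. The share of all genes with a higher ratio in ES-like than in fibroblast-like cells was not counted on either scale. The median log2 ratio of all genes was itself higher in ES-like cells, at 0.42 against 0.16. Not taken relative to all genes, the ratio of the ratios was 1.33 (1.27 to 1.39) for the sum and 128 (31.6 to 518) for Fas. It was 15 (9.96 to 22.7) for Pmaip1, 11.5 (9.43 to 14) for Perp and 1.16 (1.01 to 1.33) for Aen, with approximate 95% counting intervals. For the sum and for 8 of the 10 genes, all but Bax and Aen, the levels of both populations lay closer to each other under CX-5461. How many of all genes did the same was not counted, so this is not read as a trait of the 10 genes. In the control, the sum in ES-like cells was 0.738 times that in fibroblast-like cells, Perp 0.0727 times and Apaf1 0.274 times. Under CX-5461 these values were 0.981 (0.954 to 1.01), 0.835 and 0.952 (0.731 to 1.26). Bax, at 0.988 times its feeder level in the control, stood at 1.2 times under CX-5461. Bbc3 stood at 0.594 times its feeder level in the control and at 1.34 times under CX-5461. Fas and Pmaip1 in ES-like cells remained below their feeder levels, at 0.141 and 0.186 times.

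**Figure D3:**
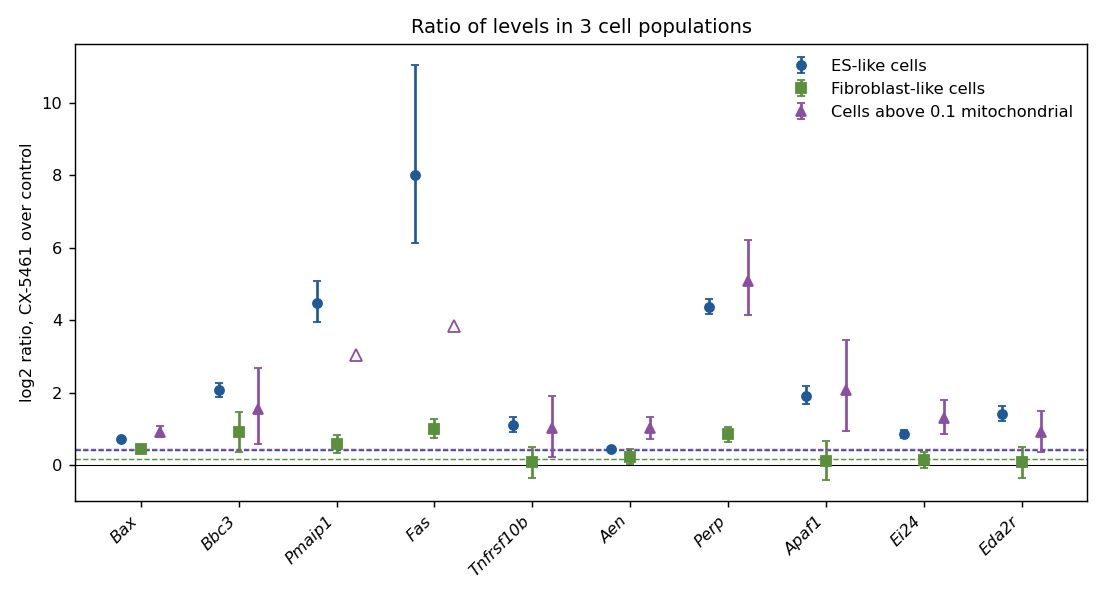
Log2 ratio of CX-5461 over control for each gene in ES-like cells (circles), fibroblast-like cells (squares) and cells above 0.1 mitochondrial (triangles), with exact 95% counting intervals; open triangles are lower bounds where the control had 0 UMIs, and dashed lines are the medians of all genes, at 0.42, 0.16 and 0.46. Circles lie above squares for all 10 genes, but Aen lies on the dashed line of ES-like cells and slightly above that of fibroblast-like cells, and Bax lies about as far above its line in both.

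In cells above 0.1 mitochondrial all 10 genes were at least 1.5-fold higher under CX-5461 and none lower, where 43% of 7657 genes were higher and 11% lower. The sum was 396 CPM (368 to 425) in the control and 977 CPM (947 to 1007) under CX-5461, a ratio of 2.47 (2.28 to 2.67). The median log2 ratio was 0.46 over all genes and 1.42 over the 10 members, whether Pmaip1 and Fas are placed at their lower bounds or above them. Relative to all genes, 6 of the 10 were at least 1.5-fold higher, beside 22.7% of all genes. Fas had 0 UMIs in the 834 control cells, for which a floor of 3 counts gives 0.36% of cells with a UMI and the exact upper limit is 0.441%. Under CX-5461 it had 95 UMIs in 74 of 710 cells. This was at least 14.4-fold higher, with 3 counts taken as the floor of the control library, and the exact lower limit of the ratio was 11.5. Pmaip1 had 0 and 54 UMIs, at least 8.2-fold higher by the same floor, with an exact lower limit of 6.44. Perp had 9 and 668 UMIs, or 4.76 and 161 CPM, a ratio of 33.8 (17.7 to 74.3). Bax had 268 and 509 CPM, a ratio of 1.9 (1.72 to 2.1), and Aen had 62.9 and 128 CPM, a ratio of 2.03 (1.66 to 2.5). At 1000 UMIs per cell, Perp was found in 0.604% (0.196 to 1.4) of control and 14.4% (11.9 to 17.2) of CX-5461 cells.

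The cells above 0.1 mitochondrial differed in kind between the libraries. Of 834 control cells, 766 belonged to unnamed shallow clusters, 2 were ES-like and 63 were above 0.2 and not clustered. Of 710 CX-5461 cells, 477 were ES-like and 225 were above 0.2. The 12 ES markers summed to 7668 and 7167 CPM and the 12 fibroblast markers to 530 and 528 CPM.

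Across bands of the mitochondrial share, over cells outside the fibroblast-like clusters and per 1000000 non-mitochondrial UMIs, the sum was higher under CX-5461 in each band. It went from 1422 (1411 to 1432) in CX-5461 cells with at most 0.05 to 1122 (1051 to 1196) in those above 0.2, and in the control from 758 (749.9 to 767) to 477 (348 to 638). Bax was lower in each band above 0.1 than in both bands below it in either library, at 1027 up to 0.05 and 533 above 0.2 under CX-5461. Perp under CX-5461 went the other way, with 111 up to 0.05 and 212 from 0.15 to 0.2, and Fas went from 12.8 up to 0.05 to 39.4 above 0.2. Control cells had Perp between 4.05 and 10.6 in all bands. Cells above 0.2 were not clustered, so any feeders among them were not left out of that band. The control part of that band held 45 UMIs of the 10 genes in 63 cells, so its values for single genes rest on few UMIs. The median depth of the control cells fell from 15701 UMIs in the lowest band to 1695 in the highest and that of the CX-5461 cells from 14913 to 4498, and its part in these values was not tested.

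**Figure D4:**
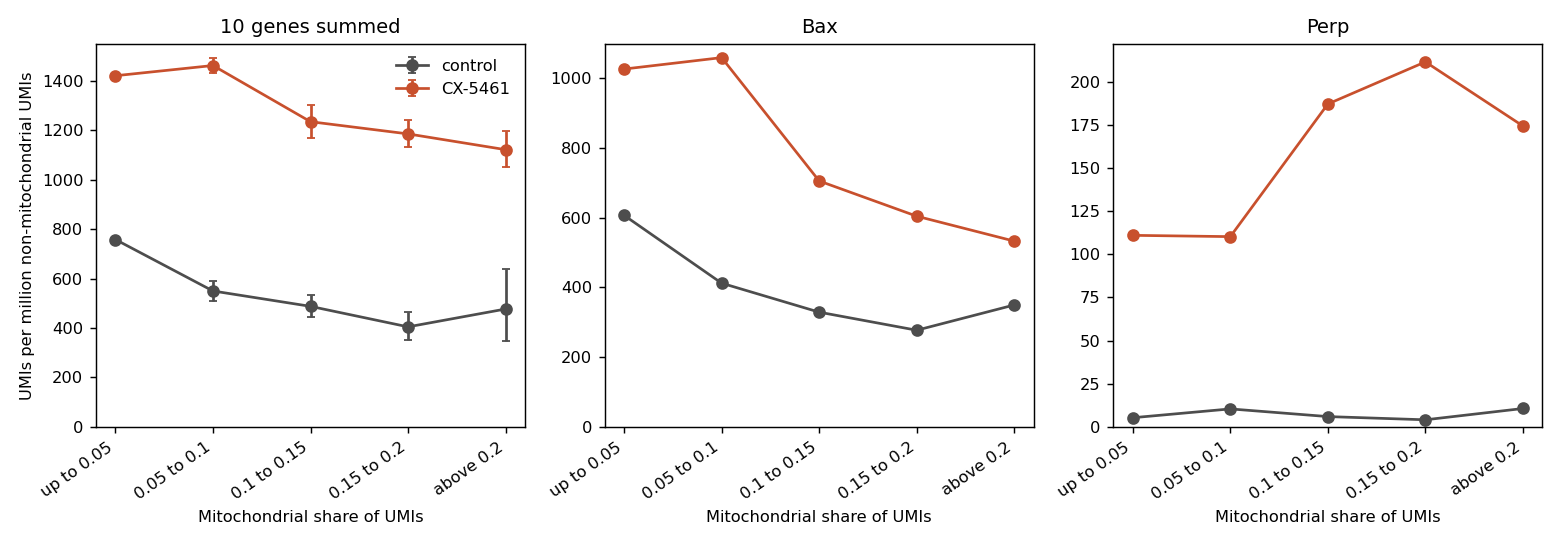
UMIs per 1000000 non-mitochondrial UMIs of the 10 genes summed (left, with exact 95% Poisson intervals), Bax (middle) and Perp (right), in 5 bands of the mitochondrial share of a cell, control in grey and CX-5461 in orange. Bax under CX-5461 goes from 1027 in the lowest band to 533 in the highest, and Perp from 111 to 174.

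The other genes of the pathway, in fixed lists chosen with earlier results of these data known, give the setting in ES-like cells, where 41.1% of all genes tested were higher, 8.47% were lower and the median log2 ratio was 0.42. Of 8 other p53 targets linked to cell death, 7 were at least 1.5-fold higher and none lower, with a median log2 ratio of 1.40. Pidd1, which builds the complex that activates caspase 2, went from 5.78 to 21.2 CPM, a ratio of 3.66 (3.18 to 4.22), and Phlda3 from 91.7 to 313 CPM, a ratio of 3.41 (3.3 to 3.54). Triap1 and Tigar had the lowest ratios, 1.58 and 1.1. Of 12 feedback and arrest genes 9 were higher and 1 lower, with a median of 1.27. The antiproliferative gene Btg2 had a ratio of 10.5 (9.72 to 11.4) and the kinase gene Plk2 of 8.07 (7.16 to 9.13), while Gadd45a had 1.22 and Rrm2b 0.421 (0.345 to 0.513). Of p53 itself and 4 regulators, 1 was higher, the p53 inhibitor Mdm4 with a ratio of 1.76. Trp53, the gene of p53, went from 263 to 296 CPM. The deubiquitinase gene Usp7 had a ratio of 1.27, and Rpl11 and Rpl5, ribosomal proteins that bind Mdm2, had 1.03 and 0.885.

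The partners of the 10 genes in the death machinery lay on both sides, again beside 41.1% of all genes higher and 8.47% lower. Of 3 anti-apoptotic Bcl2 family genes with enough UMIs, 2 were higher, Bcl2l2 with a ratio of 3 (2.08 to 4.44) and Bcl2l1 with 1.51 (1.37 to 1.66), and Mcl1 had 1.45. Of 7 other pro-apoptotic family members 4 were higher and 1 lower. The BH3-only genes Bik and Bcl2l11 (Bim) had ratios of 3.88 (2.78 to 5.55) and 2.78 (2.31 to 3.34), Bid, which links the receptor route to mitochondria, had 0.506 (0.473 to 0.541), and Bak1, which acts like Bax, had 0.789. Of 7 caspase and apoptosome genes 3 were higher and 2 lower, with a median log2 ratio of -0.05, below that of all genes. Casp6 and Casp8 had ratios of 1.92 (1.63 to 2.28) and 1.71 (1.19 to 2.49), and Casp2 had 0.537. Of 9 genes of mitochondrial release and caspase inhibition 1 was higher and none lower, with Birc3 at 1.56 (0.98 to 2.55), Birc5 at 1.46, Aifm1 at 0.928 and Birc6 at 0.753. Of 6 genes of the death receptor pathway 1 was higher and 1 lower. Cflar, which encodes the inhibitor of caspase 8 at these receptors, went from 40 to 8.62 CPM, a ratio of 0.216 (0.195 to 0.238), and Tnfrsf1a, a receptor of tumour necrosis factor, from 2.98 to 5.87 CPM, a ratio of 1.97 (1.6 to 2.44). Fadd and Ripk1 had ratios of 0.896 (0.745 to 1.08) and 1.25 (1.04 to 1.5).

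In the other populations the lists were smaller after the minimum of 50 UMIs. In fibroblast-like cells, where 22.4% of all genes were higher and 11.3% lower, 4 of 8 death-linked p53 targets and 6 of 8 arrest genes tested were higher, and none of 5 other pro-apoptotic family members was higher and 1 lower. There none of the 5 genes of p53 and its regulators and none of 3 anti-apoptotic genes passed the fold in either direction, 1 of 5 caspase and apoptosome genes was higher, 2 of 6 release and inhibitor genes were lower, and of 5 receptor pathway genes 1 was higher and 1 lower. In cells above 0.1 mitochondrial, where 43% of all genes were higher and 11% lower, 7 of 8 death-linked targets, 8 of 8 arrest genes, 2 of 5 regulators, 2 of 2 anti-apoptotic genes, 2 of 4 other pro-apoptotic genes and 2 of 3 caspase and apoptosome genes were higher, with 1 regulator lower. None of 6 release and inhibitor genes was higher there and 1 was lower, and of 2 receptor pathway genes 1 was higher and 1, Cflar, lower.

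Of 6173 genes outside these lists with enough UMIs in all 3 populations, the 5 whose log2 ratios lay nearest to those of the summed members, by Euclidean distance over the 3 values, were Hagh, Oard1, Dab2ip, Snapc2 and Nucb2. Their distances were between 0.0668 and 0.0953, and 67 genes lay within 0.25.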

How the data were processed

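As deposited by the authors, the values are UMI counts of each gene in each barcode, not normalized, 1 table per condition, with no sample of origin for a cell, made per the methods with a published droplet pipeline on mm10 and not yet filtered. A further deposited column of counts shared with other genes was used as a check. Seurat 2.3.4, named in the submitters' notes, was used by the authors downstream. No column of per-sample values was left unused.

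Cells with at least 500 UMIs were kept. Symbols and coordinates come from GENCODE M21 (GRCm38), where 54079 of 54146 identifiers matched, 52480 of them with their version. Cells with at most 0.2 mitochondrial were clustered together on 2000 variable genes, 16 principal components, 15 neighbours and Leiden resolution 0.5 (leidenalg 0.10.2), giving 13 clusters that were named from fixed markers. Nearly every ES-like cluster held cells of 1 library. No doublet caller was run. As an alternative, cells with UMIs of both marker lists were left out. This does not single out doublets, because the fibroblast marker Sparc was seen in most ES-like cells (control 83.9%, CX-5461 86.6%). The part of doublets in the results was therefore not tested. UMIs were summed per library and population. Intervals (95%) came from scipy 1.17.1, and a gene at 0 UMIs was set against a floor of 3 counts per library. A gene counted as higher or lower at 1.5-fold, with at least 50 UMIs over both libraries. TMM factors came from edgeR 4.0.16 as an alternative scale only, on the deposited counts. Thinning and ratios were tested on simulated data. The members and gene lists were chosen with earlier results of these data known. Named genes are all members, the 2 highest and 2 lowest ratios of each list in ES-like cells, and the 5 nearest patterns, of which 1 gene is not reported here; clusters, Trp53, Fasl, Tnfsf10 and Cdkn1a were picked once their values were known. Barcodes are running numbers, so barcodes that the libraries share could not be counted.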

Additional observations from a re-analysis of the deposited data

How the results depend on the processing

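The log2 ratio of the summed members was above 0 in all 28 alternatives. In ES-like cells it was 0.88 and became 0.91 per 1000000 non-mitochondrial UMIs, 0.45 centred on the all-gene median, 0.48 with the TMM factor, 0.91 as a mean over cells of CPM, 0.91 with every cell thinned, and 0.96 without cells with UMIs of both marker lists, which left 341 control and 427 CX-5461 cells. The 0.96 is no check on doublets, as this step dropped most ES-like cells and most of them held Sparc, a fibroblast marker. In fibroblast-like cells the log2 ratio of the sum was 0.47 and became 0.31 centred, 0.32 with TMM and 0.57 thinned. In cells above 0.1 mitochondrial it was 1.30 and became 0.85 centred and 0.94 with TMM. The count of members at least 1.5-fold higher went from 3 to 1 at 2-fold in fibroblast-like cells and from 10 to 6 on centring in cells above 0.1 mitochondrial. The difference in the share of cells with a UMI of any member, CX-5461 minus control, was 0.0772 percentage points in ES-like cells and 9.64 when thinned, 0.505 and 4.94 in fibroblast-like cells, and 43.5 and 28.8 above 0.1 mitochondrial. The difference in variance over mean was 0.123 in ES-like cells, 0.51 unthinned and 0.127 without the highest cells. It was 0.313, 0.663 and 0.298 in fibroblast-like cells, and 0.075, 0.406 and 0.0437 above 0.1 mitochondrial. Of 140 values of single members under scale, depth and highest-cell alternatives, 132 kept their sign, and no member at least 1.5-fold higher changed sign. No value was obtained without cells of both marker lists among fibroblast-like cells, which left 5 and 4 cells, or for ES-like clusters above 0.1 mitochondrial, which held 2 control cells. No paired analysis was possible because the cells carry no sample or replicate number. Depth limits Fas and Pmaip1 in control ES-like cells and all members but Bax and Aen in control cells above 0.1 mitochondrial.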
